A study of Mus musculus with 3 samples.

Results

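The matrix metalloproteinases, an aggrecanase and their tissue inhibitors were followed through Alcam+Sca-1- bone-lining cells (BLCs), which line the inner surface of bone. The 10 genes were Mmp2, Mmp3, Mmp9, Mmp13, Mmp14, Adamts5, Timp1, Timp2, Timp3 and Timp4, chosen by symbol from the 32285 genes measured. The cells were sorted for Alcam, without Sca-1, CD31 or the blood markers CD45 and Ter119, after collagenase digestion of femora, tibias and iliac bones of wild-type (WT) mice whose labels give no age. There was 1 group with 3 libraries of single-cell RNA-seq, each an independent sample in the study's methods, and no treatment, so that the comparisons here were made between kinds of cell within those libraries. Each cell was placed in a gate, a class set by a score over a few marker genes (for example Bglap, Ifitm5, Sp7 and Dmp1 for the osteoblast gate), and none of the 10 genes was a marker. Levels are unique molecular identifiers (UMIs, counted RNA molecules) of a gene scaled to 1e+06 UMIs (CPM), summed over all cells of a gate in a library.

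Matrix metalloproteinases are zinc enzymes that cut collagens and other matrix proteins, and most are released as inactive proenzymes. Mmp2 and Mmp9 are the gelatinases, Mmp13 is the main collagenase of mouse bone and cartilage, Mmp3 is stromelysin-1, Mmp14 is anchored in the cell membrane, and Adamts5 is an aggrecanase that cuts the cartilage proteoglycan aggrecan. The Timp proteins bind the active site of matrix metalloproteinases, with strengths that differ between pairs. Timp2 also bridges Mmp14 and proMmp2 at the cell surface, where proMmp2 is cut to its active form.

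Mmp13 and Mmp3 are shown first because, apart from Mmp9, they were the members seen in the fewest cells over the 3 libraries, 343 and 1214. Both lie on chromosome 9, 162490 bases apart, in the GENCODE annotation of GRCm38, the same assembly as the mm10 build of the deposited files. Mmp13 spans chr9:7272514-7283331 and Mmp3 chr9:7445822-7455975, both on the plus strand. The 250 bases before each RefSeq start (GRCm38.p6, plus strand, chr9:7272264-7272513 and chr9:7445572-7445821) are given 5′ to 3′, with capitals at matches on either strand to the AP-1 motif TGAGTCA, the Runx motif AACCACA and the TATA motif TATAAA.
Mmp13: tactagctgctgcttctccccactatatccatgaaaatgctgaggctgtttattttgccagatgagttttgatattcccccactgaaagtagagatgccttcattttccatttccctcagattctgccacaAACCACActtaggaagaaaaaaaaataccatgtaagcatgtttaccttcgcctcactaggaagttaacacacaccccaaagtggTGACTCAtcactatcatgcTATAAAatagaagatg
Mmp3: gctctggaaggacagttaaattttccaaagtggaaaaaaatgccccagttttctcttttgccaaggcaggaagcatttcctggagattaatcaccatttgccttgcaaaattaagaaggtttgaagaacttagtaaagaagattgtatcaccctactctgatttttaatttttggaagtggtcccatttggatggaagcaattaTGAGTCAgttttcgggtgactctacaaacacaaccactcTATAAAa

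The AP-1 motif starts 35 bases before the Mmp13 start and 46 bases before the Mmp3 start, and no other of the 7 members with a promoter entry held it, whereas 4.46% of 32851 promoters did. TATAAA was also found in Mmp13 and Mmp3 alone among the 7, against 12.4% of all promoters. AACCACA was found in Mmp13 only, against 4.40% of all promoters. These matches describe letters in the window and are not evidence of binding. Mmp2, Mmp9 and Adamts5 had no entry. Of the inhibitors, Timp1, Timp3 and Timp4 lie inside the synapsin genes Syn1, Syn3 and Syn2 on the opposite strand.

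The 3 libraries held 2606, 7172 and 10529 barcodes, of which 2476, 6363 and 9393 cells were kept (18232 in all), with medians of 5618, 9721 and 5815 UMIs per cell. Libraries shared 5 to 28 barcodes pairwise. Replicate 1 stood apart in its cells, with 597 cells in the CAR gate (Cxcl12-abundant reticular cells, marked by Cxcl12 and Lepr) against 74 and 102, 5 in the growth plate gate against 2075 and 2386, and 165 in the plasma cell gate against 1 and 0. Levels of the 10 genes in replicate 1 are therefore given separately. Growth plate cells were summed in replicates 2 and 3 only, although other gates of replicate 1 entered the fit that compares them. Every marker was higher inside its gate than outside it in each library with at least 20 cells of the gate. This follows from placing cells by the same markers and is not a check of the gates. The minimum of 20 cells was used for levels unless stated. Free RNA was gauged from 7 sums of erythroid, plasma and mononuclear myeloid cells. There the 10 genes had at most 23.3 CPM, except Mmp3 at 37.9 CPM in the plasma gate of replicate 1, where 1 cell held 94 of 100 UMIs. The neutrophil gate was not among these sums and had up to 48.1 CPM of Timp2 and 50.8 CPM of Timp3.

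**Figure D1:**
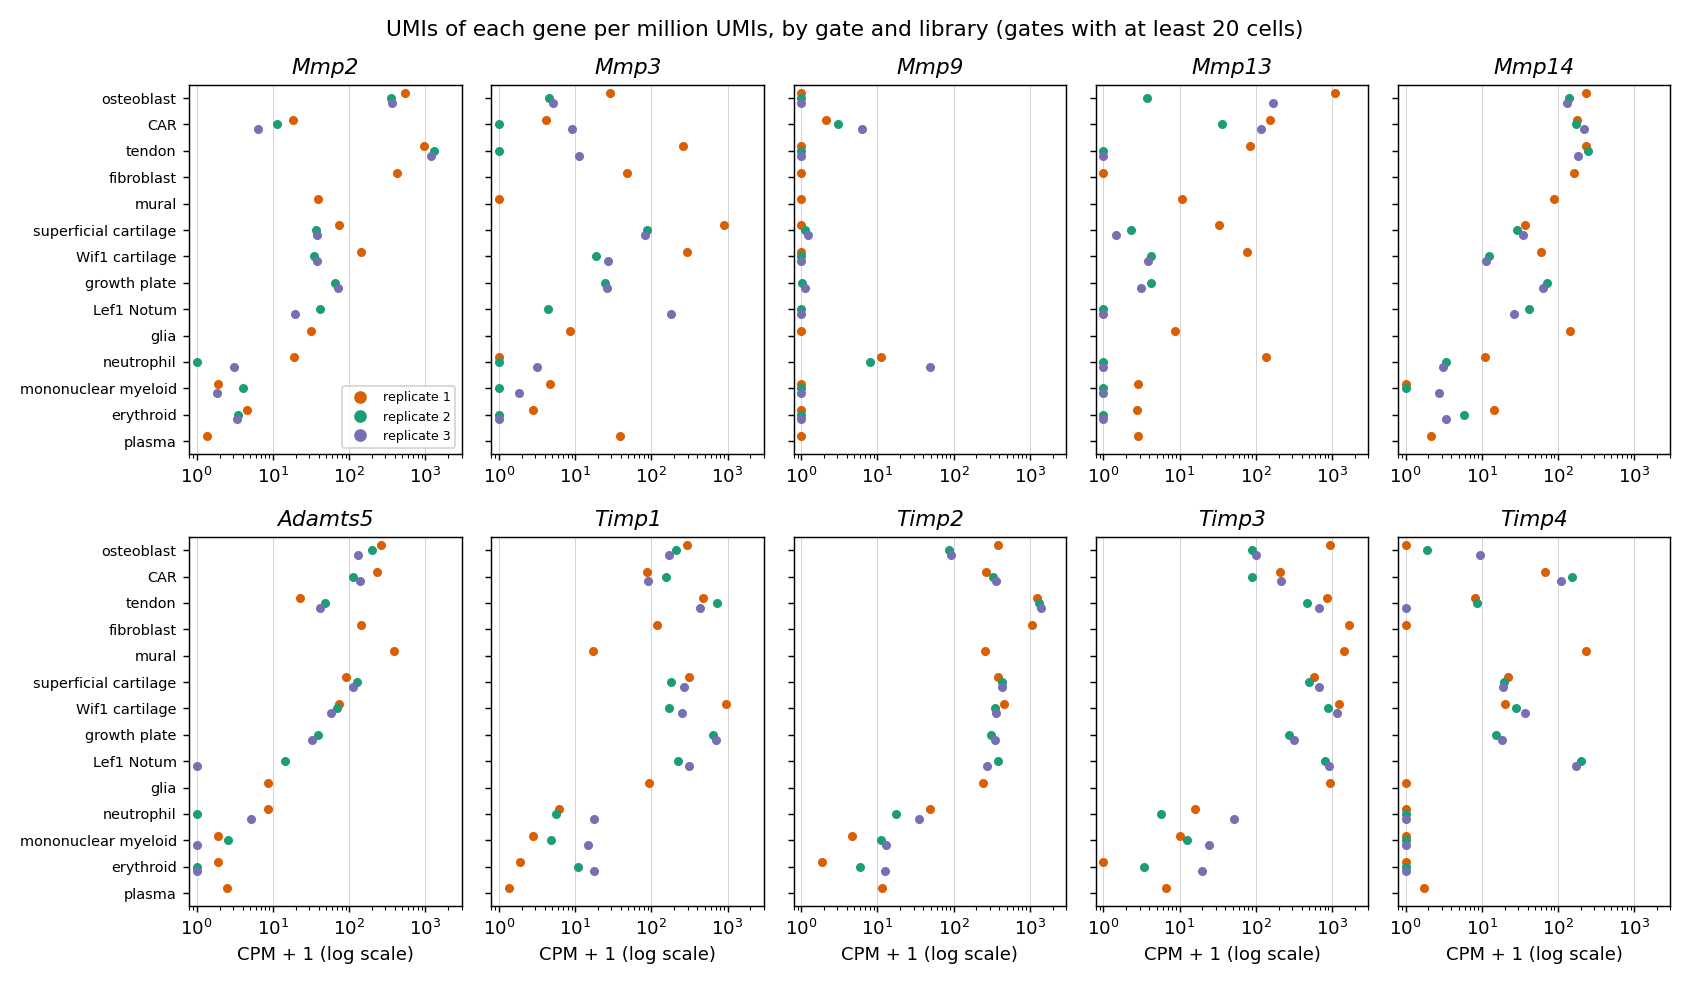
Level of each of the 10 genes by gate; the x axis is CPM + 1 on a log scale, each point is 1 library with at least 20 cells of the gate, and colours mark the replicates. Mmp2 and Timp2 are highest in the tendon gate, Timp4 in the mural, Lef1 Notum and CAR gates, and Mmp9 in neutrophils, while Mmp3 and Mmp13 differ most between libraries.

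The gelatinase Mmp2 was the member that separated the bone and tendon cells most clearly from CAR cells. In the tendon gate (Tnmd, Scx, Mkx, Mfap4 and Kera) it stood at 953, 1301 and 1173 CPM in replicates 1, 2 and 3, or 1143 ± 176 (SD, n = 3). In the osteoblast gate it stood at 543, 355 and 363 CPM. In the CAR gate it stood at 17.3, 10.5 and 5.35 CPM. The ranges of the 3 gates did not overlap. At least 1 Mmp2 UMI was seen in 95% of tendon gate cells of replicate 1 and all of those of replicates 2 and 3, and in 7.71%, 5.41% and 1.96% of CAR gate cells. After each cell was thinned to 1000 UMIs, these shares became 55.7%, 68.2% and 68.4% against 1.71%, 0.918% and 0.563%. The share in the 7 background sums after thinning was at most 1.02%. The thinned CAR share of replicates 2 and 3 was thus at background. Their CPM lay above the highest background sum, 3.62 CPM, but on only 5 and 2 UMIs, and below the 17.7 CPM of neutrophils in replicate 1. Cartilage cells were between these levels, at 65.3 and 69.7 CPM in the growth plate gate 73.0, 35.3 and 36.6 CPM in the superficial cartilage gate (Cilp, Cilp2 and Prg4) and 141, 33.9 and 37.2 CPM in the Wif1 cartilage gate (Wif1, Cytl1 and Myoc). The Lef1 Notum gate (Lef1, Notum, Sfrp5, Nkd2 and Apcdd1) had 40.6 and 18.4 CPM in replicates 2 and 3.

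Mmp14, the membrane-type enzyme that activates Mmp2, did not share this split. It was at 231, 245 and 182 CPM in the tendon gate and at 176, 174 and 219 CPM in the CAR gate, and the ranges overlapped. Osteoblast gate cells had 234, 137 and 130.2 CPM. Superficial cartilage cells, at 35.7, 28.3 and 34.1 CPM, were below every tendon, CAR and osteoblast value. The lowest Mmp14 levels of the cartilage cells were in the Wif1 cartilage gate of replicates 2 and 3, at 11.6 and 10.3 CPM, with 58.4 CPM in replicate 1. Growth plate cells had 70.8 and 63.0 CPM and Lef1 Notum cells 40.6 and 25.7 CPM.

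Timp2 completed the trio and was again highest in tendon gate cells, at 1239, 1324 and 1406 CPM, or 1323 ± 83.5 (SD, n = 3). The CAR gate held 269, 331 and 356 CPM. The osteoblast gate held 385, 87.1 and 92.4 CPM, so that replicate 1 lay above the other osteoblast values and above its own CAR value. In cartilage Timp2 was at 385, 432 and 435 CPM in the superficial gate, at 463, 344 and 358 CPM in the Wif1 gate, at 385 and 272 CPM in the Lef1 Notum gate and at 309.8 and 345 CPM in growth plate cells. All 3 RNAs of the trio were seen together in 62.5%, 68.6% and 43.5% of tendon gate cells, in 33.3%, 13.6% and 4.56% of osteoblast gate cells and in 5.19%, 4.05% and 1.96% of CAR gate cells. Growth plate cells held all 3 in 32.5% and 17.5% of cells and fibroblast gate cells of replicate 1 in 32.1%. These shares move with depth, which was not equalised, and median depths were 6788.5, 6931 and 4051 UMIs in the tendon gate, 4582, 3627 and 2190 in the osteoblast gate, 5856, 6517 and 3812.5 in the CAR gate and 16922 and 9596.5 in the growth plate gate.

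Differences between gates were tested on UMIs summed per gate and library with edgeR's quasi-likelihood test in 1 fit over the stromal gates, with the library as a block and p-values adjusted over all genes tested (threshold 0.05). Mmp9 was too sparse to be tested, which left 9 members. Between tendon and CAR cells 7 of 9 members were called, against 23.5% of all genes. Higher in tendon were Mmp2 (log2 fold change 6.58 ± 0.41 SE, adjusted p = 8.58e-11), Timp2 (1.99 ± 0.28, adjusted p = 1.03e-05), Timp1 (2.34 ± 0.42, adjusted p = 0.000202) and Timp3 (1.95 ± 0.42, adjusted p = 0.00115), each in 3 of 3 libraries. Lower in tendon were Adamts5 (-2.34 ± 0.38, adjusted p = 7.45e-05) and Timp4 (-4.02 ± 0.60, adjusted p = 2.56e-05), also in 3 of 3 libraries. Mmp14 differed by 0.20 ± 0.31 (adjusted p = 0.719) and was higher in tendon in 2 of 3 libraries. Mmp3 was also called (5.65 ± 0.88, adjusted p = 3.97e-05) although it was higher in only 2 of 3 libraries. All 72 tendon UMIs of Mmp3 in replicate 1 lay in 3 cells, and without replicate 1 its difference was -0.34 (adjusted p = 0.968). With DESeq2 the adjusted p was 0.0924.

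Between osteoblast and CAR cells 4 of 9 members were called, against 32.0% of all genes. Mmp2 was higher (5.58 ± 0.40, adjusted p = 3.61e-10), as was Timp1 (1.49 ± 0.41, adjusted p = 0.00786), and Timp4 was lower (-4.43 ± 0.50, adjusted p = 3.44e-07), each in 3 of 3 libraries. Mmp3 was called at adjusted p = 0.0468 on 11 osteoblast UMIs in all and with the same direction in 2 of 3 libraries, and DESeq2 gave an adjusted p of 0.366. Between tendon and osteoblast cells 4 of 9 members were called, against 22.9% of all genes, and each had its direction in 3 of 3 libraries. Timp2 (2.69 ± 0.30, adjusted p = 5.23e-07) and Mmp2 (1.00 ± 0.29, adjusted p = 0.0136) were higher in tendon. Adamts5 (-2.94 ± 0.38, adjusted p = 4.03e-06) and Mmp13 (-3.97 ± 1.03, adjusted p = 0.00705) were lower in tendon, although 3 cells held nearly all osteoblast UMIs of Mmp13. In replicate 2 the direction of Mmp13 cannot be told, with 3 osteoblast UMIs (2.69 CPM) against 0 in tendon, where 3 UMIs equal 11.7 CPM. The comparisons among these 3 gates share their sums and are not independent.

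**Figure D2:**
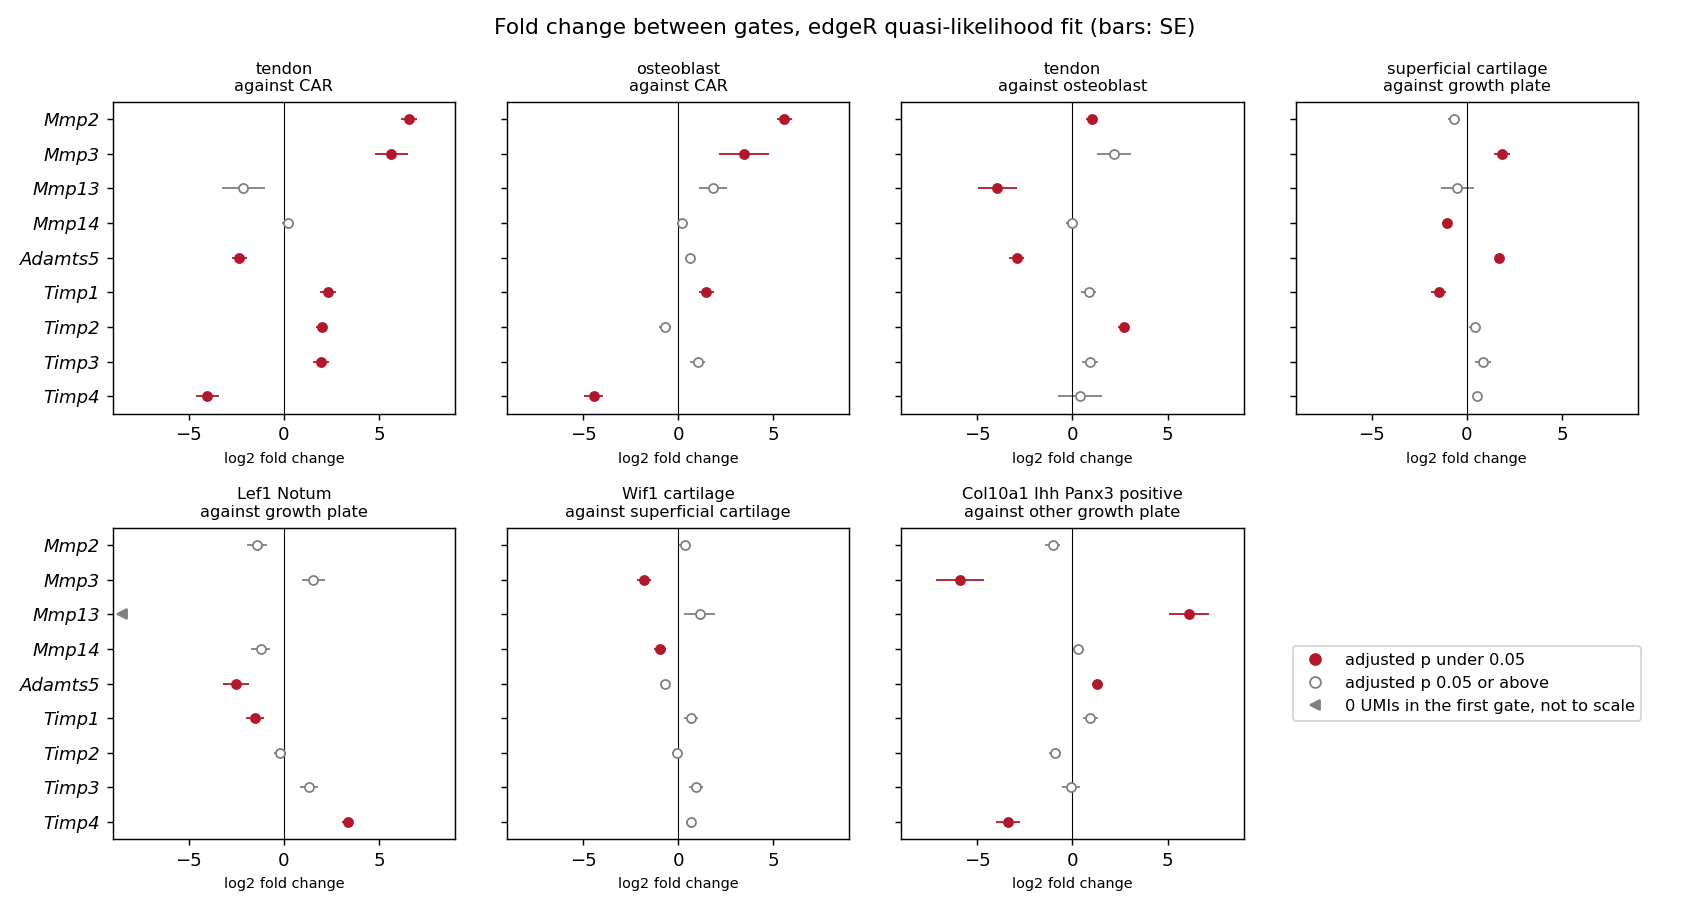
Log2 fold change of the 9 tested members in 7 comparisons between gates, with bars of 1 SE from the edgeR fit; filled points passed an adjusted p of 0.05, and the arrowhead marks a gate with 0 UMIs, drawn without scale. Mmp2 and Timp4 point in opposite directions in both comparisons with CAR cells, and Mmp14 lies near 0 in all 3 comparisons among tendon, osteoblast and CAR cells.

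Among gates with at least 20 cells in a library, Adamts5 was most abundant in the mural gate (Myh11, Acta2, Rgs5, Tagln and Notch3). It was at 389.8 CPM there in replicate 1, the only library with at least 20 such cells. The endothelial gate, with only 5, 11 and 8 cells, had 0, 282 and 752 CPM. In osteoblast gate cells it was at 261, 198 and 130.2 CPM and in CAR gate cells at 228, 111 and 136 CPM, with overlapping ranges. Tendon gate cells had 21.7, 46.6 and 40.5 CPM, below every osteoblast and CAR value. Among cartilage cells it was higher in the superficial gate than in the growth plate gate, with 88.9, 125 and 112 CPM against 38.3 and 31.9 CPM, and the Wif1 gate had 72.5, 67.8 and 57.5 CPM. The Lef1 Notum gate had 13.5 CPM in replicate 2 and 0 in replicate 3, where the limit from 3 UMIs is 11.0 CPM.

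The collagenase Mmp13 was carried by few cells. Of 4382 UMIs in 18232 cells, 3772 (86.1%) lay in 94 cells with at least 10 UMIs each, and the highest cell held 278. The highest 1% of cells held 63.9% and 98.3% of the Mmp13 UMIs of replicates 1 and 2, and all of those of replicate 3. For Timp2 the same shares were 10.1%, 6.45% and 6.49%. Replicate 1 contributed 66 of the 94 cells, replicate 2 contributed 17 and replicate 3 contributed 11. By gate, 57 were ungated, 17 were CAR gate cells, 5 were growth plate, 5 Wif1 cartilage, 3 osteoblast and 3 hypertrophic cells (Col10a1, Ihh and Panx3). How far they set a gate's level differed between gates. The osteoblast gate had 1085, 2.69 and 168 CPM, and 2 cells held 152 of the 158 UMIs of replicate 1 while 1 cell held 117 of the 120 UMIs of replicate 3. The CAR gate had 153, 35.6 and 118 CPM, with a UMI in 10.1%, 10.8% and 14.7% of its cells. Without the rich cells, CAR cells of replicates 1 and 3 still had 33.8 and 86.2 CPM, against at most 1.89 CPM in the background sums. Growth plate cells had 3.24 and 2.16 CPM. In replicate 1 alone, tendon, Wif1 cartilage and superficial cartilage cells had 83.1, 76.1 and 31.8 CPM, and in replicates 2 and 3 at most 3.29 CPM. In replicate 1, 1 tendon cell held 22 of 23 UMIs and 2 superficial cartilage cells held 67 of 82. Without the rich cells, the tendon, Wif1 cartilage and superficial cartilage levels of replicate 1 were 3.69, 38.2 and 5.89 CPM.

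**Figure D3:**
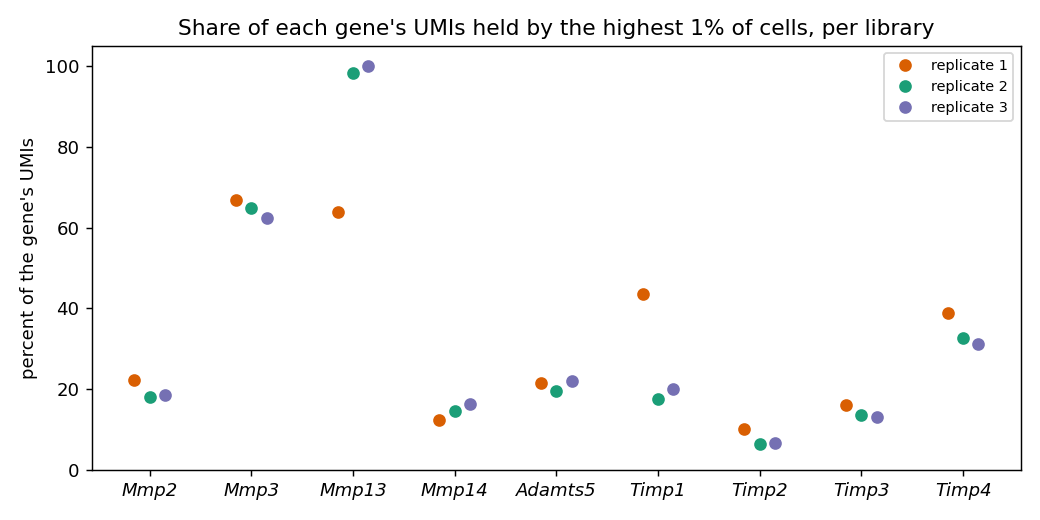
Percent of each gene's UMIs held by the highest 1% of cells in each library (y axis, percent), 1 point per library and gene. Mmp13 lies at 63.9% or above and Mmp3 at 62.4% to 66.8%, whereas Timp2 lies at 6.45% to 10.1%; in replicate 3 fewer than 1% of cells had any Mmp13 UMI.

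The Mmp13-rich cells also held Mmp2, Mmp14 and Timp2 at higher levels than other cells. Because they were chosen on Mmp13 these are descriptions without a test. Mmp14 was at 374, 389.7 and 239.9 CPM in the rich cells of replicates 1, 2 and 3 and at 70.7, 51.1 and 40.7 CPM in all other cells. Timp2 was at 1056, 1012 and 1250.0 CPM against 230.3, 328 and 348 CPM. Mmp2 was at 499, 269.5 and 253 CPM against 74.0, 64.9 and 57.7 CPM. These 3 genes were higher in the rich cells of each library, and Adamts5 was too, at 371, 257 and 88.4 CPM. Timp3 was higher in replicates 1 and 3 only. Timp4 had no UMI in the rich cells of replicates 1 and 2.

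Genes of other kinds also set these cells apart. Spp1, the matrix protein osteopontin, was at 15160.2, 40479 and 40216 CPM in the rich cells, and Ibsp, bone sialoprotein, at 12799, 19789.7 and 21074 CPM. Runx2, the master factor of the osteoblast lineage, was at 1646, 460.2 and 758 CPM against 239, 275 and 283 CPM in other cells. Col10a1, the collagen of hypertrophic cartilage, was at 1808 CPM in the rich cells of replicate 2 but at 2.16 and 12.6 CPM in those of replicates 1 and 3. Bglap, the osteocalcin of mature osteoblasts, was at 209.5, 66.3 and 12.6 CPM against 182, 768 and 714 CPM in other cells, so that it was below them in replicates 2 and 3 but not in replicate 1. Among genes seen in at least 50% of rich cells, the 3 with the highest ratio over other cells were Slit2, Spp1 and Tnc. They were chosen after their values were seen. The ratio was pooled over the libraries, and replicate 1 held 66 of the 94 rich cells. Slit2 was at 931 CPM in replicate 1 but at 12.4 and 50.5 CPM in replicates 2 and 3. Tnc was at 1998, 53.9 and 732 CPM. Pooled levels in other cells were 22.7 CPM for Slit2, 1486 CPM for Spp1 and 71.1 CPM for Tnc. Slit2 and Tnc of replicate 2 lay below these. The rich cells had median depths of 6157, 14097 and 6167 UMIs, above the 5607.5, 9712 and 5814.5 UMIs of other cells.

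**Figure D4:**
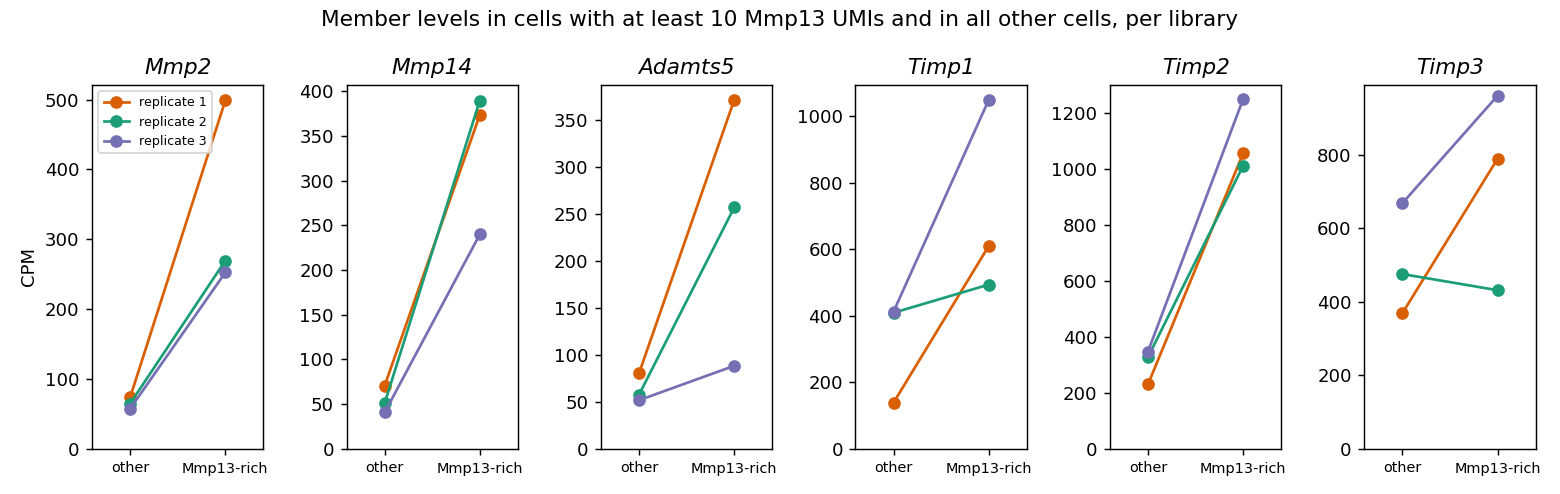
Level (y axis, CPM, linear from 0) of 6 members in cells with at least 10 Mmp13 UMIs and in all other cells, 1 line per library. Mmp2, Mmp14 and Timp2 lie higher in the Mmp13-rich cells of all 3 libraries, and Timp3 in replicates 1 and 3 only.

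Within the growth plate, most Mmp13 UMIs came from few cells of replicate 2. The hypertrophic gate held 4, 8 and 5 cells, too few for a sum, so that cells of the growth plate or hypertrophic gates with at least 2 of Col10a1, Ihh and Panx3 (68 and 45 cells in replicates 2 and 3) were set against those with none (1531 and 1943 cells). This comparison was added once the number of cells per gate was known. The positive cells were deeper, with medians of 24310.5 and 13916 UMIs against 15636 and 9278, and the part of depth was not tested. Mmp13 was at 230.2 and 0 CPM in the positive cells and at 2.58 and 1.11 CPM in the others. All 377 UMIs of replicate 2 lay in 4 of 68 cells. The fit called Mmp13 (6.12 ± 1.06, adjusted p = 0.00078), but only 1 of 2 libraries had that direction, and without replicate 2 the value was -4.79 (adjusted p = 0.997).

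In the same comparison 4 of 9 members were called, against 6.82% of all genes, and apart from Mmp13 each had its direction in 2 of 2 libraries. Without replicate 2, edgeR called 0 of 9, with 4 at an unadjusted p under 0.05. Adamts5 was higher in the Col10a1 Ihh Panx3 positive cells (1.30 ± 0.30, adjusted p = 0.00775), at 73.3 and 56.7 CPM against 26.9 and 26.7 CPM. Timp4 was lower (-3.39 ± 0.63, adjusted p = 0.0015) and so was Mmp3 (-5.93 ± 1.26, adjusted p = 0.00443), which had 0 and 1 UMI in the positive cells. Timp1 was at 1078 and 1202 CPM in the positive cells and at 554 and 630.5 CPM in the others, without a call (0.95 ± 0.41, adjusted p = 0.185). A Timp1 UMI was seen in 95.6% and 93.3% of the positive cells, and in 53.1% and 59.5% after thinning, against 27.8% and 29.8% of the others after thinning.

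Stromelysin-1, Mmp3, had its highest mean level in the superficial cartilage gate, with ranges that overlapped those of other gates. It was at 911, 87.0 and 80.6 CPM in superficial cartilage, at 295, 17.7 and 26.3 CPM in the Wif1 cartilage gate and at 23.6 and 25.6 CPM in growth plate cells. Replicate 1 lay far above replicates 2 and 3 in both gates where it had enough cells. CAR gate cells had 3.12, 0 and 8.02 CPM and osteoblast gate cells 27.5, 3.59 and 4.20 CPM. The Lef1 Notum gate had 3.38 and 180.1 CPM in replicates 2 and 3. The latter was above superficial cartilage of the same library, but 2 of 66 cells held 42 of its 49 UMIs. In UMIs rather than level, the growth plate gate held more in replicate 2, 840 (40.6%) against 682 (33.0%) in superficial cartilage. As for Mmp13, few cells held most UMIs, with 172 cells of at least 10 UMIs holding 5328 of 7632 (69.8%). Of these cells 78 were superficial cartilage cells, 37 growth plate cells, 37 ungated and 14 Wif1 cartilage cells. Without them, superficial cartilage cells had 74.1, 31.6 and 40.4 CPM, and Lef1 Notum cells of replicate 3 had 27.1 CPM.

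Many of the Mmp3 UMIs of replicate 1 came from cells with Nos2, the inducible nitric oxide synthase. Superficial cartilage cells with a Nos2 UMI numbered 85, 14 and 40. Mmp3 was at 3008, 217 and 304 CPM in them and at 184, 84.9 and 75.3 CPM in the other cells of that gate, higher in each library. The same direction did not hold in each gate, since Nos2 cells of the Wif1 gate had 849, 0 and 33.4 CPM against 198, 17.8 and 26.2 CPM, and ungated Nos2 cells had 943, 124 and 5.03 CPM against 50.3, 24.5 and 38.0 CPM. Timp1 was at 535 CPM against 228 CPM in replicate 1 but at 125 against 181 CPM and at 260.3 against 265 CPM in replicates 2 and 3. Mmp13 had 0 UMIs in the superficial cartilage cells with Nos2 of every library, against 42.9, 1.29 and 0.462 CPM in the others. In replicates 2 and 3 that level is too low for 14 and 40 cells to show a difference. In replicate 1, 2 cells held 67 of the 82 Mmp13 UMIs of the gate. Mmp2 was at 1.51, 33.3 and 14.7 CPM in the Nos2 cells of that gate against 97.7, 35.3 and 37.1 CPM. The Nos2 cells were deeper, with medians of 6801, 8592.5 and 5063 UMIs against 5609, 6823 and 4230, and the part of depth was not tested. In the Wif1 cartilage gate of replicate 1, 6 Nos2 cells held 449 of 538 Timp1 UMIs, and the Timp1 level of that gate, 952 CPM against 169.6 and 249 CPM, rests on them.

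Between superficial cartilage and growth plate cells 4 of 9 members were called, against 49.4% of all genes, so the share is near the background. Adamts5 (1.72 ± 0.26, adjusted p = 8.14e-06) and Mmp3 (1.86 ± 0.42, adjusted p = 0.000887) were higher in superficial cartilage, and with DESeq2 the Mmp3 call was lost (1.92, adjusted p = 0.23). Timp1 (-1.48 ± 0.40, adjusted p = 0.00368) and Mmp14 (-1.04 ± 0.28, adjusted p = 0.00395) were lower. All 4 had their direction in 2 of 2 libraries. Without replicate 1, whose other gates entered the same fit, 7 members were called, and calls over all genes rose from 5612 to 7107. Wif1 cartilage cells differed from superficial cartilage cells in 2 of 9 members, against 12.5% of all genes, in a comparison that was also added later. Mmp3 was lower (-1.82 ± 0.36, adjusted p = 0.00141) in 3 of 3 libraries and Mmp14 lower (-0.95 ± 0.30, adjusted p = 0.0407) in 2 of 3. Both calls were lost with DESeq2, without the library block and without replicate 2.

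Timp1 was highest in growth plate cells, at 642 and 696 CPM, followed by tendon gate cells at 473, 726 and 435 CPM, with overlapping ranges. Osteoblast gate cells had 295, 209 and 169 CPM and CAR gate cells 86.4, 153 and 88.2 CPM, so that each osteoblast value was above each CAR value. Superficial cartilage had 307, 180.0 and 265 CPM and Lef1 Notum cells 219.8 and 316 CPM. Mural cells had 16.1 CPM, on 5 UMIs.

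Timp3, the inhibitor that binds to the matrix and also blocks aggrecanases, had its highest level with at least 2 libraries in the Wif1 cartilage gate, at 1242, 899 and 1157 CPM. The fibroblast gate (Cd34, Igfbp6, Clec3b, Dpt and Pi16) and the mural gate had 1695 and 1443 CPM in replicate 1, their only library with at least 20 cells. On 19 and 13 cells, the fibroblast gate of replicates 2 and 3 had 672 and 423 CPM, below each Wif1 cartilage value. Superficial cartilage had 581, 505 and 670.1 CPM and growth plate cells 274 and 319 CPM. Tendon cells had 867, 470.0 and 678 CPM and CAR cells 205, 87.9 and 211 CPM. Each Wif1 cartilage value was above each superficial cartilage value, but the test gave 0.95 ± 0.37 (adjusted p = 0.0954). In the osteoblast gate replicate 1 stood at 948 CPM on 27 cells, apart from 88.9 and 101 CPM.

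Timp4 was highest in 3 gates. It was at 232 CPM in mural cells of replicate 1, at 199 and 173 CPM in the Lef1 Notum gate and at 67.1, 153 and 109.6 CPM in CAR cells. Both Lef1 Notum values were above all CAR values. In contrast, osteoblast gate cells had 0, 0.898 and 8.40 CPM and tendon gate cells 7.22, 7.77 and 0 CPM, on 7 and 4 UMIs in all. A Timp4 UMI was seen in 37.5% and 25.8% of Lef1 Notum cells (13.1% and 11.6% after thinning) against 9.78% and 8.80% of growth plate cells (1.56% and 1.68% after thinning) and at most 1.21% of cells in the background sums. Superficial, Wif1 and growth plate cartilage cells had 14.4 to 35.5 CPM, low but above the 0.757 CPM of the highest background sum, and in replicate 2 the growth plate gate held 29.9% of all Timp4 UMIs.

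Lef1 Notum cells differed from growth plate cells in 3 of 9 members, against 12.4% of all genes, each with its direction in 2 of 2 libraries. Timp4 was higher (3.35 ± 0.31, adjusted p = 3.68e-07), and Adamts5 (-2.54 ± 0.69, adjusted p = 0.0171) and Timp1 (-1.53 ± 0.47, adjusted p = 0.0349) were lower, and the Timp1 call held in 5 of 12 alternative fits. Timp3 was at 805 and 904 CPM against 274 and 319 CPM, short of the threshold (1.32 ± 0.46, adjusted p = 0.0648). Mmp13 had 0 UMIs in Lef1 Notum cells, which does not set it apart from growth plate cells at this depth.

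Mmp9, which osteoclasts and neutrophils are known to make, was almost absent, with 12, 8 and 31 UMIs in the 3 libraries. Neutrophils (Camp, Ltf, Ngp and Retnlg) held 4, 3 and 23 of them, at 10.1, 7.05 and 48.7 CPM. These neutrophil UMIs lay in 1 cell each in replicates 1 and 2 and in 8 of 45 cells in replicate 3. CAR cells had 1.13, 2.09 and 5.35 CPM, while osteoblast, tendon and Wif1 cartilage cells had 0 UMIs in all 3 libraries. The osteoclast gate held 1 cell.

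The balance of inhibitor to protease RNA was summarised as the UMIs of the 4 Timp genes over those of the 6 proteases. This is a ratio of RNA counts, which gives no weight to how strongly each inhibitor binds. Among stromal gates with at least 20 cells, the osteoblast gate alone was below 1, at 0.757, 0.555 and 0.467 (0.593 ± 0.149, SD, n = 3). The value of replicate 1 rests on 2 of 27 cells, which held 152 Mmp13 UMIs of 313 protease UMIs. Without cells of at least 10 Mmp13 UMIs the osteoblast ratios were 1.32, 0.555 and 0.552, so that replicate 1 passed 1 and only replicates 2 and 3 stayed below it. CAR cells had 1.09, 2.18 and 1.55, and tendon cells 1.67, 1.59 and 1.79. Ratios of cartilage cells were 1.13, 4.11 and 5.27 in superficial cartilage, 6.16 and 7.15 in growth plate cells and 4.16, 10.7 and 13.4 in the Wif1 cartilage gate. Replicate 1 was the lowest in the superficial and Wif1 gates, and in superficial cartilage it was below all tendon values. Without it, superficial cartilage stood at 4.69 and Wif1 cartilage at 12.1. With all cells, osteoblast values did not overlap with those of any other stromal gate, but without the Mmp13-rich cells replicate 1 lay above the 1.16 of superficial cartilage in that library. Tendon cells reached their ratio with high sums on both sides, 1516 ± 97.8 CPM of protease and 2544 ± 36.3 CPM of inhibitor, whereas growth plate cells had 197 ± 6.21 and 1309 ± 96.2 CPM (SD, n = 3 and n = 2).

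**Figure D5:**
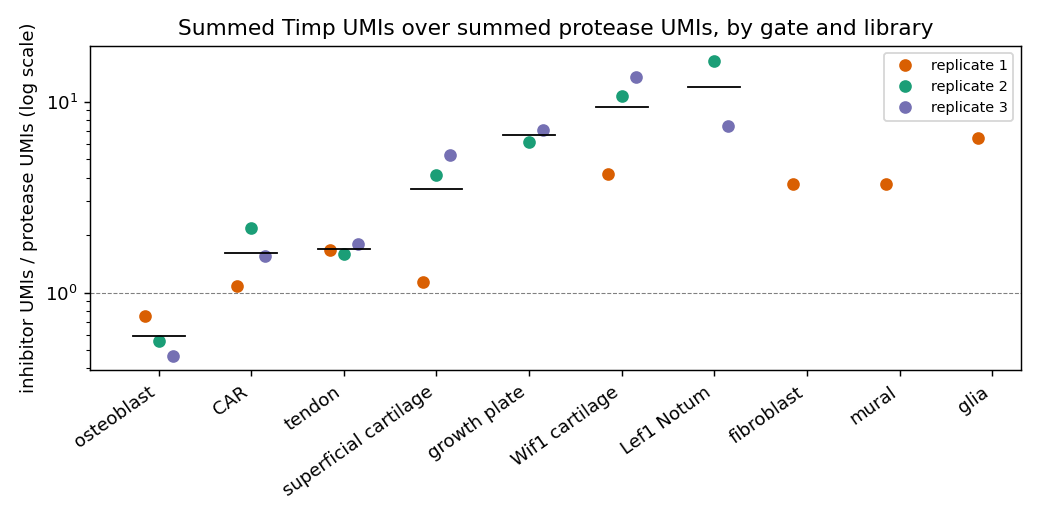
Summed UMIs of the 4 Timp genes over those of the 6 member proteases (y axis, log scale) by gate, with 1 point per library of at least 20 cells and a bar at the mean where there are 2 or more libraries; the dashed line marks 1. Osteoblast cells lie at 0.467 to 0.757 and all other stromal gates above 1, with all cells included. The osteoblast point of replicate 1 would lie at 1.32 without 2 Mmp13-rich cells.

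Wider lists of the same system were counted in the same fit, namely other matrix metalloproteinases, other ADAMTS proteases, and activators, inhibitors and clearance genes, of which 5, 13 and 20 were tested. Between tendon and CAR cells 1, 2 and 4 of them were higher and 2, 6 and 6 lower, against 23.5% of all genes called. Adamts6 (5.15), the plasminogen activator Plat (2.87) and the membrane-type Mmp16 (2.32) had the largest log2 fold changes upward. A2m, a general protease trap, and Adamts14 and Adamts12 had 0 tendon UMIs, or at least 12.7-fold, 7.99-fold and 5.85-fold lower levels than CAR cells when 3 UMIs over the 3 tendon sums are taken as the limit. Between osteoblast and CAR cells 1, 4 and 6 were higher and 1, 3 and 6 lower, against 32.0% of all genes called. Mmp16 led there (5.33 ± 0.31, adjusted p = 1.42e-11), at a mean of 296 CPM against 15.6 CPM, followed by the urokinase receptor Plaur (5.10) and Adamts6 (4.03). A2m (-5.63), Mmp19 (-4.83) and Serpine2 (-2.84), an inhibitor of plasmin and thrombin, were lower in osteoblasts. Between tendon and osteoblast cells 0, 0 and 5 were higher and 2, 5 and 7 lower, against 22.9% of all genes called. They were led by the serine protease Htra1 (2.25) and the cathepsins Ctsl (1.74) and Ctsk (1.74) upward, and by Adamts12, Adam12 (-7.29) and Plaur (-4.46) downward.

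In cartilage, superficial cells had 2, 4 and 8 of these genes higher and 2, 4 and 5 lower than growth plate cells. Over all genes 49.4% were called in that comparison. Adamts18 (4.97), Plat (4.80) and Serpine2 (4.11) were higher and Adam12 (-4.12), Mmp23 (-2.60) and Adamts3 (-2.44) lower. Lef1 Notum cells had 0, 1 and 5 higher and 0, 1 and 5 lower than growth plate cells, against 12.4% of all genes called. Plat (2.63), Adamts12 (2.42) and Adam17 (1.38) were higher and Adam12 (-4.07) and Adamts1 (-3.24) lower. Wif1 cartilage cells had 1, 4 and 4 higher and 0, 1 and 4 lower than superficial cells, against 12.5% of all genes called. Adamts12 (2.48), Mmp23 (1.56) and Adamts2 (1.41) were higher and Tll1 (-2.03), Adamts18 (-1.56) and Htra1 (-1.19) lower. In the Col10a1 Ihh Panx3 positive cells none was higher than in the other growth plate cells. There 0 of 7, 1 of 13 and 4 of 20 were lower, against 6.82% of all genes called. The urokinase Plau (-4.11), Adamts17 (-2.26) and Reck (-1.95), a membrane-anchored inhibitor of metalloproteinases, were the largest.

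Genes with the pattern most like each member were sought by Pearson's r of log2(CPM + 10) over the means of 14 gates, which share their libraries, among 7612 genes with at least 50 CPM in a gate. The values are descriptions. For Mmp2 these were Trib2 (0.93), Ccser1 (0.91) and Serpinf1 (0.91), for Mmp14 Magi2 (0.95), Antxr1 (0.95) and Zcchc24 (0.94), and for Timp2 Parva (0.97), Pkd2 (0.96) and Npdc1 (0.96). For Timp1 they were Loxl3 (0.98), Ikbip (0.96) and Ppic (0.95), for Timp3 Lrig3 (0.97), Irf2bpl (0.96) and 1110051M20Rik (0.95), and for Timp4 Hoxc6 (0.92), Thsd4 (0.89) and Tmem51 (0.89). For Adamts5 they were St6galnac6 (0.93), Adgrl1 (0.90) and Slc7a2 (0.88), and for Mmp3 Cdon (0.92), Dgki (0.88) and Slc1a4 (0.87). Mmp13 had the weakest likeness, with Hpgd (0.84), Car3 (0.84) and Slc36a2 (0.84), and Mmp9 was nearest to Orm1 (0.99), Ly75 (0.98) and Krt83 (0.98).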

How the data were processed

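3′ single-cell libraries (Chromium Next GEM, v3.1 chemistry) were made by the authors from sorted Alcam+Sca-1- BLCs of WT mice. The deposited files hold raw UMI counts per gene and cell, with no normalization, and the submitters' processing notes name Cell Ranger 7.1.0 and mm10. Cells under 200 genes or over 20% mitochondrial UMIs were removed, and Scrublet (scanpy 1.11.5) scores were used to remove presumed doublets at 0.8% per 1000 cells of a library. Cells were put in 1 of 17 gates when their mean scaled marker score reached 0.25, with at least 2 markers seen, and exceeded the next gate by 0.1. Counts were summed per gate and library with at least 20 cells and tested with edgeR 4.0.16 (glmQLFit and glmQLFTest, TMM, filterByExpr, library as a block, Benjamini-Hochberg over all genes). The numbers mark libraries, so every gate of a library shares its sample, which is the source of the pairing. The fit was tested on simulated data. Alternatives were RLE scaling, DESeq2 1.42.0, other filters, gates and doublet handling, fits without the block or of only the 2 gates, and leaving out each replicate. The comparison of the hypertrophic gate could not be made with under 20 cells per library.

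The members, marker lists, wider lists and tests were chosen with earlier results of these data known. The rule was to name the 10 members in gates with at least 20 cells in a library (background gates are given as a range). The endothelial gate, with 5, 11 and 8 cells, and the hypertrophic gate fell below that minimum. The rule also named up to 3 genes of the wider lists per direction, those with the largest fold among genes called with 1 sign in every library. A gene that this rule would name is not reported here. Limits from 3 UMIs cover counting error only. Depth was 20985636, 79905165 and 69890252 UMIs in the 3 libraries, so a level in a small gate is less precise (3 UMIs equal 30.3 CPM in the tendon gate of replicate 3 and 0.0844 CPM in the growth plate gate of replicate 2). Promoter sequences are from RefSeq (GRCm38.p6), and 7 of 10 members matched.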

Additional observations from a re-analysis of the deposited data

How the results depend on the processing

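The most stable calls were Mmp2, Adamts5, Timp1, Timp2, Timp3 and Timp4 between tendon and CAR cells, which held in all 12 alternatives run, Mmp2 and Timp4 between osteoblast and CAR cells (13 of 13), Adamts5 between superficial cartilage and growth plate cells (13 of 13) and Timp4 between Lef1 Notum and growth plate cells (12 of 12). A minimum of 50 cells left no tendon sums and stricter gates no Lef1 Notum sums, so those fits gave no value. Of 788 refitted fold changes, 659 stayed on their side of the threshold. The sign changed in 4 that were called in either fit and in 30 that were called in neither, 8 of them Mmp14 between tendon and osteoblast cells. Mmp13 between osteoblast and CAR cells went to -4.83 with stricter gates, Mmp3 between tendon and CAR cells to -6.10 with stricter gates and to -0.34 without replicate 1 (up to 6.08 without the others), and Mmp13 in Col10a1 Ihh Panx3 positive cells to -4.79 without replicate 2 (up to 6.55 without the others). The cause was not tested.

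Without a filter on low genes 7 members were called in osteoblast against CAR, tendon against osteoblast and Lef1 Notum against growth plate cells, where 4, 4 and 3 stood. Calls over all genes were 3605, 2467 and 1577 there, where 3644, 2600 and 1415 stood. The same setting called 7 members in Col10a1 Ihh Panx3 positive against other growth plate cells and in Wif1 against superficial cartilage cells, where 4 and 2 stood. Calls over all genes were 957 and 1817 there, where 797 and 1423 stood. With no replicate block 2 were called in tendon against osteoblast, 2 in the Col10a1 Ihh Panx3 positive cells and 0 of 9 in Wif1 against superficial cartilage (edgeR, 3 at an unadjusted p under 0.05), and the other comparisons stayed within 1.5 times. With only the 2 compared gates in the fit, an alternative chosen after seeing the data, 8 members were called in superficial cartilage against growth plate, 7 in Lef1 Notum, 7 in Col10a1 Ihh Panx3 positive and 6 in Wif1 cartilage cells. Stricter gates gave 7 in superficial cartilage against growth plate and 4 in Wif1 cartilage, looser gates 5 in Lef1 Notum, and a minimum of 50 cells 7, 5 and 4 in superficial cartilage, Lef1 Notum and Wif1 cartilage. With doublets kept 1 was called in Wif1 cartilage, and DESeq2 called 0 (2 at an unadjusted p under 0.05). Calls over all genes with stricter gates were 6523 in superficial cartilage against growth plate and 1763 in Wif1 cartilage. Looser gates gave 1684 over all genes in Lef1 Notum, and a minimum of 50 cells 7433 in superficial cartilage and 1875 in Wif1 cartilage.

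Leaving out each replicate in turn gave 2 to 7 members in superficial cartilage against growth plate, 1 to 7 in Lef1 Notum, 0 to 7 in Col10a1 Ihh Panx3 positive and 0 to 5 in Wif1 cartilage cells. The high ends came without replicate 1 and the counts of 0 without replicate 2 (edgeR, 4 and 2 at an unadjusted p under 0.05), and growth plate cells then have 1 library, whose spread is taken from the other gates, so the loss of calls there also reflects fewer samples. Over all genes, leaving out replicates gave 1419 to 7107 calls in superficial cartilage against growth plate (5612 with all), 48 to 2412 in Lef1 Notum (1415), 7 to 2328 in Col10a1 Ihh Panx3 positive (797), 173 to 3065 in Wif1 cartilage (1423), 1649 to 3731 in osteoblast against CAR (3644), 1276 to 2213 in tendon against CAR (2673) and 1043 to 2722 in tendon against osteoblast (2600). Other counts over all genes that moved by more than 1.5 times were 10116, 2267, 1977, 1688 and 1293 for superficial cartilage, Lef1 Notum, Col10a1 Ihh Panx3 positive, tendon against CAR and tendon against osteoblast with only the 2 gates, 863, 293 and 763 for Lef1 Notum, Col10a1 Ihh Panx3 positive and Wif1 cartilage with no replicate block, 1651 for tendon against osteoblast with stricter gates and 429 for Lef1 Notum with at least 50 cells.

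Levels in the highest gate moved by more than the SD for Mmp14 (255 CPM), Timp1 (708 CPM) and Timp2 (1229 CPM) with stricter gates, and for Mmp9 (46.0 CPM), Timp1 (592 CPM) and Timp4 (167 CPM) as a mean over cells. Without cells of at least 10 Mmp13 UMIs, also chosen after seeing the data, the osteoblast ratio of inhibitor to protease moved to 0.810. Few cells limit the tendon, Lef1 Notum and osteoblast gates, and replicate 1 gives no growth plate value.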

Other observations

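Other matrix proteases of the wider lists are named by the gate with the highest mean, among gates with at least 20 cells in a library. The spread between libraries and the distance to the next gate were not examined for them. The genes named here were chosen after their values were seen. In the mural gate, measured in replicate 1 only, Adamts1 stood at 1089 CPM and Adamts4 at 354 CPM, the highest gate for both aggrecanases. CAR cells were the highest gate for Adamts9, with a mean of 429 CPM, and for Mmp23, with 93.8 CPM. Osteoblast cells were the highest gate for Adamts2, a procollagen N-propeptidase, with 379 CPM, for Bmp1, the procollagen C-proteinase, with 434 CPM, and for Fap with 488 CPM. Adamts3, another procollagen N-propeptidase, was highest in tendon cells at 127 CPM.

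Cells in no gate numbered 806, 1735 and 2824 and entered no comparison. Mmp13 was at 306, 21.4 and 13.4 CPM in them, and 70.0% of the Mmp13 UMIs of replicate 1 lay there. In the glia gate of replicate 1 (55 cells), Timp3 stood at 938 CPM, Timp2 at 244 CPM, Mmp14 at 145 CPM, Timp1 at 91.5 CPM and Mmp2 at 30.5 CPM. Mmp3, Mmp13 and Adamts5 had 1 UMI each there, and Mmp9 and Timp4 had 0, where 3 UMIs equal 22.9 CPM. In the mural gate of replicate 1, Timp2 stood at 254 CPM, Mmp14 at 87.0 CPM, Mmp2 at 38.7 CPM and Mmp13 at 9.66 CPM, with 0 UMIs of Mmp3 and Mmp9. In the fibroblast gate of replicate 1, Mmp14 stood at 161 CPM, Adamts5 at 143 CPM, Timp1 at 119 CPM and Mmp3 at 47.6 CPM, with 0 UMIs of Mmp9, Mmp13 and Timp4. In the fibroblast gate, under 20 cells in replicates 2 and 3, Mmp2 stood at 422, 513 and 604 CPM and Timp2 at 1058, 775 and 1188 CPM. In the neutrophil gate of replicate 1, 1 cell held all 54 Mmp13 UMIs.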
